A study of Homo sapiens with 7 samples.

Results

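miR-7 is described here through its 3 mature RNAs in the count files: the guide arm miR-7-5p and the opposite arms miR-7-1-3p and miR-7-2-3p. They are 3 of the 2652 mature miRNAs listed, and they were selected on the level of miR-7-5p, which lay below the untreated library in every siRNA-treated library. Their levels against untreated cells are therefore given as a description with no test. The small RNA libraries are from HepG2 cells, a widely used human line from a hepatocellular carcinoma, labelled as wild type. Cells received either of 2 siRNAs that target TEAD1, a transcription factor acting at the end of the Hippo pathway, for 24, 36 or 48 h, with 1 library per siRNA and time, beside 1 untreated library (0 h). No library with a control siRNA is among the labels. The effects of transfection, of hours in culture and of TEAD1 loss cannot be told apart. The TEAD1 mRNA is not measured by small RNA libraries, so its silencing could not be checked. The labels do not say whether each library had its own culture. The p-values measure the spread among these particular libraries, and that spread may be technical.

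A miRNA hairpin yields a duplex of 2 arms, of which one, the guide, is loaded into an Argonaute protein while the opposite or passenger arm is mostly degraded. The guide finds its targets mainly through its seed, and miR-7 is known for repressing the epidermal growth factor receptor EGFR in human tumour cells and for its enrichment in neurons and endocrine cells. Several RNAs that act on it are known: the circular RNA CDR1as carries many miR-7 sites, miR-671-5p directs the slicing of CDR1as, and in mouse the long noncoding RNA Cyrano (OIP5-AS1 in human) directs the degradation of miR-7.

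The sequences of the arms are shown first, because the guide is made by several hairpins while each opposite arm marks a single one. They are from RefSeq (GRCh38.p14), where the members matched 4 mature entries, with the seed (bases 2 to 8) in capitals.
hsa-miR-7-5p: uGGAAGACuagugauuuuguuguu
hsa-miR-7-1-3p: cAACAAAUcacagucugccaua
hsa-miR-7-2-3p: cAACAAAUcccagucuaccuaa
The first is 24 bases long and is given for MIR7-1 (chr9:83969811-83969834, minus strand) and MIR7-3 (chr19:4770700-4770723, plus strand). miR-7-1-3p lies at chr9:83969771-83969792 (minus strand) and miR-7-2-3p at chr15:88611896-88611917 (plus strand). The opposite arms share their seed and 18 bases, and going from miR-7-1-3p to miR-7-2-3p they differ by A10C, G17A, A20U and U21A, counted from the 5′ end. None of the other miRNAs in the files carries the seed of miR-7-5p, and the seed of the opposite arms is carried by these 2 alone.

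The hairpins of MIR7-2 and MIR7-3 are shown because both hold the same guide sequence, so a read of miR-7-5p does not name its gene. Capitals mark the annotated mature arms.
MIR7-2: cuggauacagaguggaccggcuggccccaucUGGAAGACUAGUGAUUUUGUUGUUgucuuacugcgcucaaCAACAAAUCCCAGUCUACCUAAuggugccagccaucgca
MIR7-3: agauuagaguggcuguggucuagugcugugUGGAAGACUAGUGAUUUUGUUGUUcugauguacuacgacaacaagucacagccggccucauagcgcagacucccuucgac
MIR7-2 spans chr15:88611825-88611934 and MIR7-3 spans chr19:4770670-4770779, both on the plus strand. In the GENCODE 29 annotation, MIR7-1 lies within HNRNPK, the gene of an RNA-binding protein, on the same strand, in an exon of 1 of the 7 transcripts that span it and in an intron of the others. MIR7-2 overlaps no other gene there. MIR7-3 is intronic in all 9 spanning transcripts of MIR7-3HG, a noncoding host gene. The letters GGAATG, a core motif of TEAD factors, were looked for on both strands in RefSeq windows of 300 bases around gene starts. They were in 0 of 2 HNRNPK windows and 0 of 1 MIR7-3HG window, while 14.0% of all 35116 windows hold them. A window without these letters says nothing about TEAD1 elsewhere at these genes.

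Each library had 13134601 to 15591345 reads. Those counted on miRNAs numbered 1920832 to 6171851, with the untreated library highest. Reads given to no feature made up 73.5% to 86.6% of the siRNA-treated libraries and 56.9% of the untreated one. The first principal component of log2 CPM (63.1% of the variance) set both 48 h libraries and the 36 h library of siRNA 2 apart, at 10.6 to 14.0, while the other libraries lay between -9.49 and -7.86. The 36 h pair was therefore split, and results that rest on it are given with and without it. The liver miRNA miR-122-5p, a defining marker of hepatocytes, was low, at 45.5 CPM in untreated cells. With siRNA 1 it was at 32.2 CPM at 24 h and 47.6 CPM at 36 h, and in the other siRNA-treated libraries at 3.75 to 6.60 CPM. Summed hepatocyte markers reached 16102 to 27464 CPM in siRNA-treated cells and 21012 CPM in untreated cells, with 4 of 6 passing the count filter. Most of each sum was miR-148a-3p, at 13919 to 25518 CPM in siRNA-treated cells and 18414 CPM in untreated cells. miR-192-5p was at 1709 to 3064 CPM in siRNA-treated cells and 2479 CPM in untreated cells. miR-194-5p was at 68.6 to 136 CPM in siRNA-treated cells and 73.1 CPM in untreated cells. miR-885-5p was at 0 throughout, and miR-483-3p was at 0 in siRNA-treated cells and 0.559 CPM in untreated cells.

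miR-7-5p was among the most abundant miRNAs of HepG2 cells and lay below untreated in all 6 siRNA-treated libraries. At 24 h it had 82247 reads with siRNA 2, which is 34390 CPM (read counts scaled to a common library size with TMM factors), and 120800 reads or 35693 CPM with siRNA 1. At 36 h it had 48550 reads or 20027 CPM with siRNA 2 and 40018 reads or 20247 CPM with siRNA 1. At 48 h it had 29446 reads or 12284 CPM with siRNA 2 and 48497 reads or 21177 CPM with siRNA 1. The untreated library had 345967 reads or 64484.5 CPM, which is above every siRNA-treated library. The exact 95% counting intervals were narrow, at 12145 to 12424 CPM for the lowest siRNA-treated library and 64276 to 64694 CPM for the untreated one. As a share of all miRNA reads, miR-7-5p made up 1.41% to 3.23% of siRNA-treated libraries and 5.61% of the untreated library. It ranked 5 to 13 among all miRNAs in siRNA-treated libraries and 5 in the untreated one.

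The mean level of miR-7-5p was 23970 ± 9163 CPM in siRNA-treated cells (SD, n = 6), against 64484.5 CPM in the single untreated library. The mean log2 ratio to untreated was -1.52 ± 0.57 (SD, n = 6), a geometric mean of 34.9% of the untreated level. The ratio ran from -2.39 with siRNA 2 at 48 h to -0.85 with siRNA 1 at 24 h. Both members that passed the count filter, miR-7-5p and miR-7-1-3p, lay below untreated in 6 of 6 libraries, and 13.5% of the 458 tested miRNAs did the same, while 10.5% lay above in all 6. A mean log2 ratio of -1 or lower was found in 6.33% of tested miRNAs, and one at or below that of miR-7-5p in 1.97%. Nothing is read from these shares, since the choice of the members used this contrast. In bulk RNA, fewer cells with a miRNA and less of it per cell cannot be told apart.

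**Figure D1:**
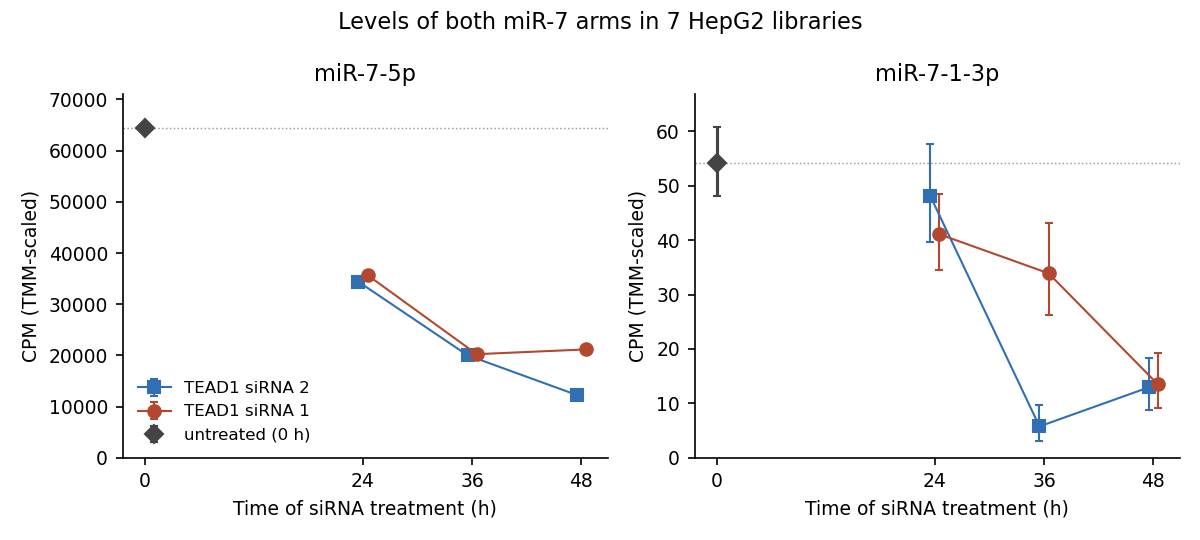
Levels of miR-7-5p (left) and miR-7-1-3p (right) in CPM, against hours of siRNA treatment, for siRNA 2 (squares), siRNA 1 (circles) and the untreated library (diamond, dotted line). Bars are exact 95% counting intervals, and each point is 1 library. miR-7-5p lay between 12284 and 35693 CPM in siRNA-treated libraries, all under the 64484.5 CPM of the untreated library, while the interval of miR-7-1-3p with siRNA 2 at 24 h overlapped that of the untreated library.

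Among the 16 miRNAs with a mean level of at least 10000 CPM, miR-7-5p, chosen for its fall against untreated, had the lowest mean log2 ratio. The next was let-7g-5p, of the let-7 tumour suppressor family, at -0.62, with 29028 CPM in siRNA-treated cells and 42988 CPM in untreated cells. miR-21-5p, the most abundant of the 16, had a mean log2 ratio of -0.28. The highest of the 16 was miR-99a-5p, at 0.37. The log2 ratio nearest to untreated was the -0.85 of siRNA 1 at 24 h for miR-7-5p and the -0.17 of siRNA 2 at 24 h for miR-7-1-3p.

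**Figure D2:**
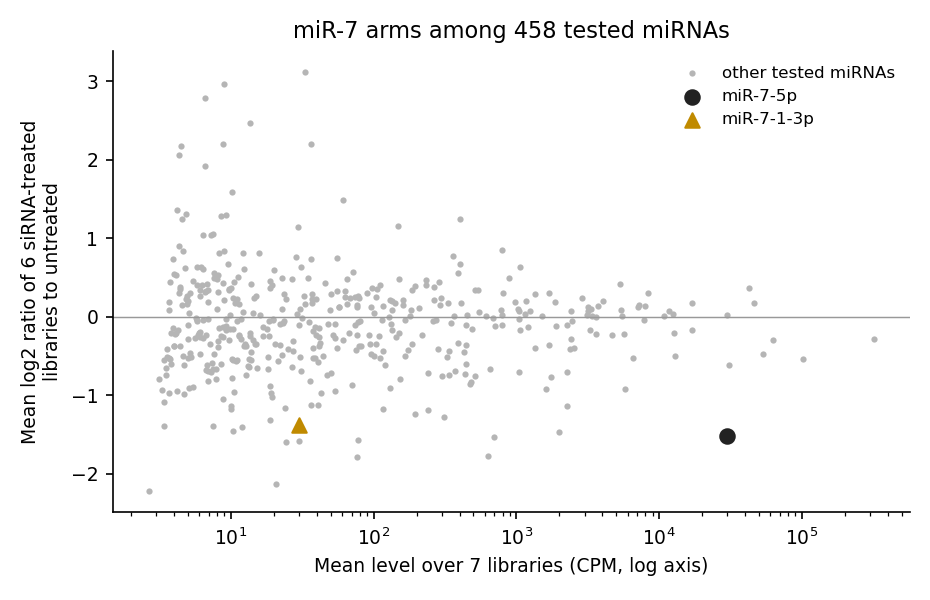
Mean log2 ratio of the 6 siRNA-treated libraries to the untreated one (log2 CPM with a prior count of 2), against the mean level over 7 libraries (CPM, log axis), for the 458 tested miRNAs. Each grey point is 1 miRNA. miR-7-5p (filled circle), chosen for its fall against untreated, is the lowest point at levels over 10000 CPM. miR-7-1-3p (triangle) is among miRNAs of low level, where the scatter is wide.

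By time, miR-7-5p stood at 64484.5 CPM in the untreated library (0 h), at 35042 ± 922 CPM at 24 h, at 20137 ± 155 CPM at 36 h and at 16730 ± 6288 CPM at 48 h (SD, n = 2 at each treated time). These are geometric means of 54.3%, 31.2% and 25.0% of the untreated level at 24, 36 and 48 h. The 2 libraries of a time were 1.04-fold apart at 24 h and 1.01-fold apart at 36 h, although the 36 h pair was split by the first principal component, and 1.72-fold apart at 48 h. The 24 h libraries overlapped with neither later time, while the 48 h values lay on either side of the 36 h pair.

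The differences between times were tested, since the untreated level is not part of any of them. The untreated library still took part in the count filter, the scaling and the fit. The choice of miR-7-5p also used its levels in the siRNA-treated libraries, so these tests are not independent of that choice. In edgeR's quasi-likelihood test over all 458 tested miRNAs, 0 were called at an adjusted p of 0.05 for 48 h against 24 h (0%), and 84 had an unadjusted p under 0.05. Neither miR-7 arm passed there. For miR-7-5p the log2 fold change of 48 h over 24 h was -1.07 ± 0.30 (SE), with a 95% interval of -1.77 to -0.37 and an adjusted p of 0.244, at place 13 of 458 in the order of p. For 36 h over 24 h it was -0.80 ± 0.29, with an interval of -1.50 to -0.10 and an adjusted p of 0.893, where again 0 miRNAs were called (0%) and 17 had an unadjusted p under 0.05. For 48 h over 36 h it was -0.27 ± 0.29, with an interval of -0.96 to 0.43 and an adjusted p of 0.944, with 0 called (0%) and 16 under 0.05 unadjusted. The levels at 48 h and 36 h were therefore not distinguishable beyond the spread between libraries.

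Without both 36 h libraries, miR-7-5p fell by 1.09 ± 0.20 on the log2 scale in 48 h libraries relative to 24 h (edgeR, adjusted p = 9.03e-07). In that fit 134 of 467 miRNAs were called, which is 28.7%, and 17.8% were called lower. Both miR-7 arms were among those called lower. The error in that fit was pooled almost wholly over all miRNAs. Its p-values therefore hardly measure the spread of a single miRNA, such as the 1.72-fold gap between the 48 h libraries of miR-7-5p. The same holds for every p-value given below without both 36 h libraries. Leaving out only the 36 h library of siRNA 2 gave -1.06 for miR-7-5p, and leaving out only that of siRNA 1 gave -1.05. The 36 h libraries enter the 48 h over 24 h difference only through the filter, the scaling and the error. The nearly equal sizes of the miR-7-5p difference in these fits are therefore no support for it. Its error was smaller without the 36 h pair, which had been seen to be split. Within each siRNA the 48 h over 24 h log2 difference of miR-7-5p was -1.49 for siRNA 2 and -0.75 for siRNA 1, and the 36 h over 24 h difference was -0.78 for siRNA 2 and -0.82 for siRNA 1, with 1 library at each time.

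**Figure D3:**
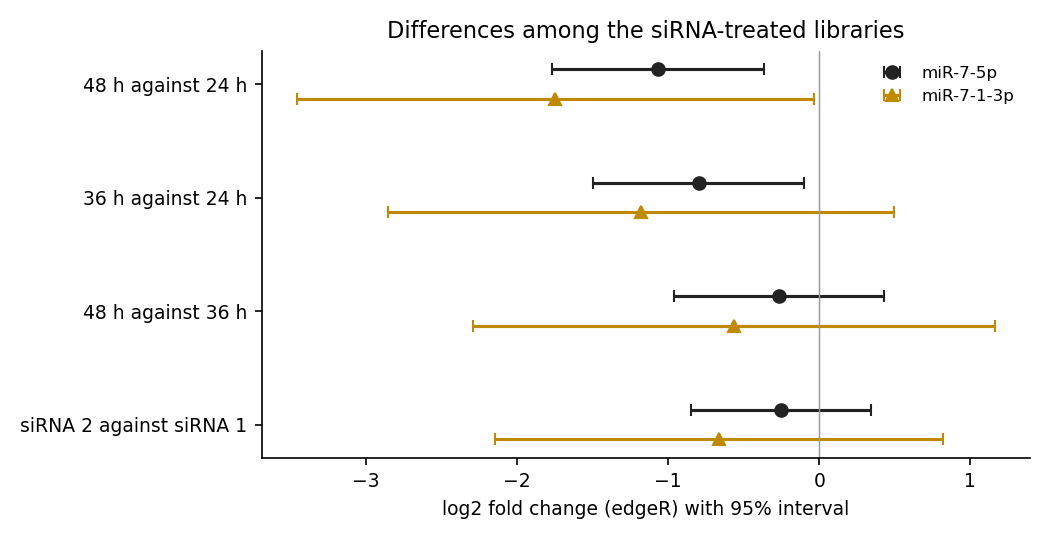
Log2 fold changes among siRNA-treated libraries from edgeR, with 95% intervals, for miR-7-5p (circles) and miR-7-1-3p (triangles). The intervals of miR-7-5p lie below 0 for 48 h and for 36 h against 24 h before adjustment for 458 miRNAs, and the intervals of miR-7-1-3p are wider in all 4 comparisons.

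The mean levels of miR-7-5p under the 2 siRNAs were 22234 ± 11217 CPM with siRNA 2 and 25706 ± 8662 CPM with siRNA 1 (SD, n = 3 each). Each SD spans the 3 times and so includes the differences between times. With time as a factor in the 6 siRNA-treated libraries, the log2 fold change of siRNA 2 over siRNA 1 was -0.25 ± 0.25 (SE), with a 95% interval of -0.85 to 0.34 and an adjusted p of 0.992 (edgeR). For miR-7-1-3p it was -0.66 ± 0.62, with an interval of -2.14 to 0.82. None of the 435 miRNAs tested was called (0%), and 6 had an unadjusted p under 0.05. The intervals bound the difference between siRNAs and do not show that they act alike.

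miR-7-1-3p, the opposite arm from MIR7-1, was far less abundant than the guide and followed another order of libraries. At 24 h it had 115 reads or 48.1 CPM with siRNA 2 (95% interval 39.7 to 57.7) and 139 reads or 41.1 CPM with siRNA 1 (34.5 to 48.5). At 36 h it had 14 reads or 5.78 CPM with siRNA 2 (3.16 to 9.69) and 67 reads or 33.9 CPM with siRNA 1 (26.3 to 43.0). At 48 h it had 31 reads or 12.9 CPM with siRNA 2 (8.79 to 18.4) and 31 reads or 13.5 CPM with siRNA 1 (9.20 to 19.2). The untreated library had 291 reads or 54.2 CPM (48.2 to 60.8), above each siRNA-treated value, but the intervals of both 24 h libraries overlapped with it. An overlap of intervals is not a test, and the differences were not tested.

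The mean of miR-7-1-3p was 25.9 ± 17.4 CPM in siRNA-treated cells (SD, n = 6), and its mean log2 ratio to untreated was -1.43 ± 1.20, a spread larger than that of the guide. It averaged 44.6 ± 4.96 CPM at 24 h, 19.8 ± 19.9 CPM at 36 h and 13.2 ± 0.427 CPM at 48 h (SD, n = 2 each). The 36 h libraries were 5.87-fold apart, against 1.01-fold for miR-7-5p in the same libraries. The low values of miR-7-1-3p were those of the 3 libraries set apart by the first principal component. Over the 3 other siRNA-treated libraries its mean log2 ratio to untreated was -0.42 ± 0.25 (SD, n = 3), and that of miR-7-5p was -1.14 ± 0.46.

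Over the 6 siRNA-treated libraries the Pearson correlation with the first principal component was -0.95 for miR-7-1-3p and -0.68 for miR-7-5p. The 2 arms correlated with each other at 0.73 over 7 libraries and 0.66 over the 6 siRNA-treated ones. These points share libraries, depth and scaling, and the component was computed from tables that hold both arms, so the values are descriptions only.

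For miR-7-1-3p the log2 fold change of 48 h over 24 h was -1.75 ± 0.72 (SE), with a 95% interval of -3.46 to -0.04 and an adjusted p of 0.260 (edgeR, all 7 libraries). Without both 36 h libraries it fell by 1.76 ± 0.34 (adjusted p = 4.41e-06). For 36 h over 24 h the value was -1.18 ± 0.71, with an adjusted p of 0.893, and within the siRNAs it was -3.06 for siRNA 2 and -0.28 for siRNA 1. For 48 h over 36 h it was -0.57 ± 0.73, with an adjusted p of 0.944, and the siRNAs had opposite signs. Leaving out siRNA 1 at 36 h gave 36 h over 24 h differences of -0.78 in miR-7-5p and -2.91 in miR-7-1-3p. Leaving out siRNA 2 at 36 h gave a 48 h over 36 h difference of -1.35 in miR-7-1-3p. In these fits the lone 36 h library was assumed to vary like the others, so only the sizes are given.

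miR-7-2-3p, the opposite arm from MIR7-2, was almost absent. It had 1 read (0.418 CPM) with siRNA 2 at 24 h, 2 reads (0.591 CPM) with siRNA 1 at 24 h and none in the other 5 libraries, and it did not pass the filter. A count of 0 allows up to 1.24 to 1.52 CPM in the siRNA-treated libraries that had none and 0.559 CPM in the untreated library. Over all libraries miR-7-1-3p had 688 reads and miR-7-2-3p had 3, so that miR-7-2-3p made up 0.434% of the opposite-arm reads (exact 95% interval 0.0896% to 1.26%). The 4 differing bases in the sequences above let reads of these arms be told apart. The share describes the opposite arms, and the hairpin source of miR-7-5p itself was not measured. miR-3529-3p, annotated on the strand opposite to MIR7-2 and the reverse complement of miR-7-5p, had 1 read over all 7 libraries.

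The arm ratio, reads of miR-7-5p per read of its opposite arms, did not move one way. At 24 h it was 709 with siRNA 2 (95% interval 591 to 858) and 857 with siRNA 1 (726 to 1018). At 36 h it was 3468 with siRNA 2 (2067 to 6344) and 597 with siRNA 1 (470 to 771). At 48 h it was 950 with siRNA 2 (669 to 1398) and 1564 with siRNA 1 (1102 to 2303), and in the untreated library it was 1189 (1060 to 1338). The ratio lay below the untreated one in 4 of the siRNA-treated libraries and above it in 2, and at 48 h both intervals overlapped that of the untreated library. The ratio with siRNA 2 at 36 h rests on 14 opposite-arm reads.

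**Figure D4:**
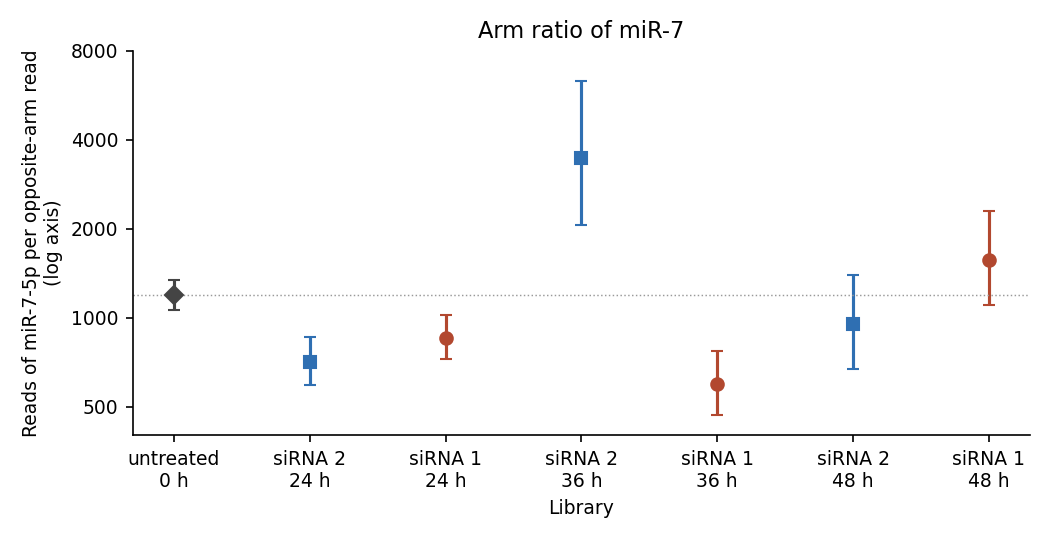
Reads of miR-7-5p per read of its opposite arms (log axis) in the untreated library and in each siRNA-treated library in order of time, with siRNA 2 left of siRNA 1. Bars are exact 95% counting intervals, and the dotted line marks the 1189 of the untreated library. The ratio with siRNA 2 at 36 h, 3468, lies above all others, and the 24 h libraries and siRNA 1 at 36 h lie below the line.

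The mean shift of the log2 arm ratio from untreated was -0.10 ± 0.93 (SD, n = 6). Over the 3 libraries not set apart by the first principal component it was -0.74 ± 0.26. Among 128 hairpin arm pairs that passed the filter, computed with 0.5 reads added, the median absolute mean shift was 0.51, and 14 pairs (10.9%) had a smaller one than miR-7. The SD of the shift was 0.91 for miR-7, and 78.1% of pairs had a lower one. In 23 of the pairs the ratio lay on 1 side of the untreated value in 6 of 6 libraries. The largest mean shifts were named among the 69 pairs with both arms at a mean of at least 50 reads. In the direction of the 3p arm they were -1.74 ± 2.01 for miR-671, -1.40 ± 2.19 for miR-340 and -1.33 ± 1.60 for miR-18a (SD, n = 6). In the direction of the 5p arm they were 0.95 ± 0.68 for miR-130b, 1.19 ± 2.07 for miR-301a and 1.37 ± 0.78 for miR-582. Of these, only miR-130b and miR-582 lay on 1 side of untreated in 6 of 6 libraries, and miR-340 lay above it in 3 and below it in 3.

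miR-671 makes the arm that slices CDR1as, and its sequences are given with seeds in capitals because its arm ratio had the lowest mean shift of those pairs (RefSeq, GRCh38.p14, MIR671 on chromosome 7, plus strand).
hsa-miR-671-5p: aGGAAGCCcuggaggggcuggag
hsa-miR-671-3p: uCCGGUUCucagggcuccacc
miR-671-5p stood at 38.5, 8.66 and 5.42 CPM with siRNA 2 at 24, 36 and 48 h and at 43.1, 49.1 and 9.17 CPM with siRNA 1, against 56.3 CPM in untreated cells. It was low in the same 3 libraries as miR-7-1-3p. Its mean log2 ratio to untreated was -1.58. miR-671-3p went the other way in those libraries, with 28.0, 83.7 and 88.4 CPM with siRNA 2 and 39.3, 44.5 and 67.7 CPM with siRNA 1, against 49.6 CPM in untreated cells. Neither arm was called between times or between siRNAs in the edgeR fits of all libraries. Without both 36 h libraries 1 of the 2 was called higher and 1 lower for 48 h against 24 h, where 28.7% of all miRNAs were called.

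The site of OIP5-AS1 for miR-7 is shown because its near-complete pairing differs from a seed match. It lies at positions 2869 to 2894 of a GENCODE 29 transcript of the gene, on chromosome 15, and capitals mark bases complementary to miR-7-5p.
OIP5-AS1 site: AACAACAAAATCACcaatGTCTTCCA
The 14 capitals on the left pair with the 3′ part of miR-7-5p and the 8 on the right with its 5′ end, with 4 unpaired bases between them in the site and 2 in the miRNA. The OIP5-AS1 RNA was not measured here. Of 14 other tested miRNAs in a list of guides with reported RNA-directed degradation and their opposite arms, 2 lay below untreated in 6 of 6 siRNA-treated libraries and 1 above, where 13.5% and 10.5% of all tested miRNAs did so, with a median log2 ratio of -0.17 beside -0.08 over all tested miRNAs. None was called between times (edgeR, all libraries). Without both 36 h libraries 1 was called higher and 4 lower at 48 h against 24 h, where 10.9% of all miRNAs were called higher and 17.8% lower. Those below in all 6 libraries were miR-29b-1-5p, with a mean log2 ratio of -1.09, and miR-221-5p, with -0.44.

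Of the other miRNAs reported to repress EGFR, 3 were tested and none lay on 1 side of untreated in all 6 libraries. miR-128-3p stood at 3816, 7430 and 7165 CPM with siRNA 2 at 24, 36 and 48 h and at 3833, 3406 and 7779 CPM with siRNA 1, against 3903 CPM in untreated cells. Its high values were in the 3 libraries set apart by the first principal component. miR-27a-3p had a mean log2 ratio to untreated of -0.50, and miR-146a-5p was at 0.591 to 11.6 CPM in siRNA-treated cells and 2.05 CPM in untreated cells. None of the 3 was called between times or between siRNAs in the edgeR fits of all libraries. Without both 36 h libraries, where 10.9% of miRNAs were called higher and 17.8% lower for 48 h against 24 h, miR-128-3p rose (0.95 ± 0.21, SE, adjusted p = 4.25e-05) and miR-27a-3p fell by 1.06 ± 0.20 (adjusted p = 2.24e-06).

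Other miRNAs enriched in neurons and endocrine cells were low in HepG2 cells. miR-124-3p, the abundant miRNA of neurons, had no read in any library, and miR-375-3p, of pancreatic islets, was at 0.295 to 4.13 CPM in siRNA-treated cells and 2.05 CPM in untreated cells. Of the 3 other tested members, miR-9-5p and miR-129-5p lay above untreated in 6 of 6 libraries, where 10.5% of all tested miRNAs did so. Their mean log2 ratios were 0.49 and 0.42, the opposite side to miR-7-5p. The remaining member, miR-137-3p, had a mean log2 ratio of -0.39 and lay below untreated in 3 of 6 libraries. None of the 3 was called between times or between siRNAs, with or without both 36 h libraries.

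Markers of other cells were low but differed between libraries. Those of blood cells summed to 16.3 to 80.0 CPM in siRNA-treated cells and 15.8 CPM in untreated cells, with 1 of 7 tested. Those of fibroblasts, smooth muscle and endothelium summed to 442 to 1067 CPM against 458 CPM, with 4 of 6 tested. Muscle markers summed to 21.0 to 876 CPM against 23.1 CPM, with miR-1-3p at 867 CPM with siRNA 1 at 36 h, and neuron and endocrine markers summed to 46.7 to 58.5 CPM against 41.8 CPM. miR-143-3p, of smooth muscle and fibroblasts, was at 164, 707 and 386 CPM with siRNA 2 at 24, 36 and 48 h and at 196, 745 and 446 CPM with siRNA 1, against 159 CPM in untreated cells. miR-451a, of red blood cells, was at 13.0, 73.0 and 32.1 CPM with siRNA 2 and at 12.7, 21.8 and 41.9 CPM with siRNA 1, against 11.7 CPM in untreated cells. Both lay above untreated in 6 of 6 libraries, where 10.5% of all tested miRNAs did so. Without both 36 h libraries both rose at 48 h against 24 h, where 10.9% of miRNAs were called higher. miR-143-3p rose by 1.19 ± 0.25 (adjusted p = 1.64e-05) and miR-451a by 1.51 ± 0.38 (adjusted p = 0.000485) on the log2 scale (edgeR). Other listed markers differed: miR-199a-5p also lay above untreated in 6 of 6 libraries, while miR-126-3p and miR-199a-3p each lay below it in 1. Neither miR-126-3p nor miR-199a-3p was called at 48 h against 24 h without both 36 h libraries. Whether any such cells were present was not measured, and a link of these markers to the miR-7 results was not tested.

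The miRNAs most like miR-7-5p over the 7 libraries were named by the Pearson correlation of log2 CPM among 275 miRNAs with a mean of at least 50 reads. They were miR-320a-3p (0.947), miR-500a-5p (0.947), miR-30d-3p (0.916), miR-452-5p (0.902) and miR-185-5p (0.896). Their differences from untreated were smaller than that of miR-7-5p, with mean log2 ratios of -0.28, -1.02, -0.53, -0.91 and -0.75 in the same order. Over the 6 siRNA-treated libraries alone the closest were miR-30a-3p (0.920), miR-1843 (0.915), miR-221-5p (0.908), miR-320a-3p (0.906) and miR-30d-3p (0.899), of which miR-320a-3p and miR-30d-3p were in both lists. For miR-7-1-3p over 7 libraries they were miR-652-3p (0.988), miR-362-5p (0.979), miR-3613-5p (0.967), miR-582-3p (0.965) and miR-590-3p (0.964), and none of these was in the lists for the guide. The points share libraries and scaling, so the correlations are descriptions.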

How the data were processed

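Each deposited file gives the raw counts of 1 library, by mature miRNA. Per the labels' protocols, libraries came from total RNA by an NEB ligation kit for small RNA. No source used here names the aligner, counter or build. The authors' 5 summary lines stayed out of library sizes and tests. Their reads assigned to no feature are given as shares, and those called ambiguous numbered 55 to 246 per library.

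The members and lists were chosen with earlier results of these data known. CPM used TMM factors of edgeR 4.0.16 (R 4.3.3). The quasi-likelihood F-test ran on the 458 miRNAs whose mean count reached 10 (99.9% of miRNA reads), with Benjamini-Hochberg adjustment over all of them and a threshold of 0.05. Untreated and the 3 times were groups in 1 fit. The siRNA comparison used the 6 siRNA-treated libraries with time as a factor and 435 miRNAs. A standard error is the one whose squared ratio to the log2 fold change gives F. Log2 CPM used a prior count of 2, and log2 ratios of members to untreated used none. Named miRNAs were the members, the 5 with the highest correlation to an arm, the 3 largest arm shifts each way and members of the lists. The script was tested on simulated independent counts. These had no split of libraries like that on the first principal component, so the p-values gain no support from them.

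Intervals are exact Clopper-Pearson intervals at 95%, and a count of 0 allows 3 reads. Without molecular identifiers in the files, both cover counting error only. No 2 libraries agreed within sampling noise (lowest chi-square per degree of freedom 44.2). Alternatives were DESeq2 1.42.0, limma-voom (limma 3.58.1), other scales and filters, libraries left out and the siRNA number as a block. Leaving out the libraries apart on the first principal component, and a prior count of 2 for the ratios to untreated, were added after seeing the data. miR-7-5p comes from several hairpins, and its reads cannot be divided between them.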

Additional observations from a re-analysis of the deposited data

Results flagged for a closer look

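The 48 h over 36 h difference of miR-7-5p had opposite signs under the 2 siRNAs, at -0.71 with siRNA 2 and 0.06 with siRNA 1 on the log2 scale, so that the siRNAs differed by -0.77. That of miR-7-1-3p was 1.16 with siRNA 2 and -1.32 with siRNA 1, so that they differed by 2.49. Each siRNA and time has 1 library, and the difference between siRNAs was not tested.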

How the results depend on the processing

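For 48 h against 24 h, miRNAs called numbered 23 with DESeq2 (6 higher, 17 lower), 29 with all reads as the scale (1, 28), 51 with no count filter (10, 41) and 134 without both 36 h libraries (51, 83), and 0 to 131 with 1 library left out. Among the settings that left no lone library at a time, miR-7-5p passed with no filter (-1.11, edgeR adjusted p = 0.0141) and without both 36 h libraries (-1.09). Its values with 1 library left out ran from -1.51 to -0.73. Among the same settings, miR-7-1-3p passed with no filter (-1.77, edgeR adjusted p = 0.0237) and without both 36 h libraries (-1.76). Its range was -1.86 to -1.58 when 1 library was left out. For 36 h against 24 h, miR-143-3p alone was called with DESeq2, limma-voom, total counts or a mean count of 50 (1 each). All reads as the scale called 2 (miR-1-3p and miR-492) and no filter 4 (those, miR-143-3p and miR-145-5p), names chosen after their values were seen. With 1 library left out the count ran from 0 to 122, miR-7-5p from -0.79 to -0.77 and miR-7-1-3p from -2.91 to -0.39. For 48 h against 36 h, all reads as the scale called 1 (miR-1-3p), no filter called 14, and leaving out 1 library called 0 to 111. There miR-7-5p ran from -0.73 to 0.062 (without siRNA 2 at 48 h). miR-7-1-3p ran from -1.35 (without siRNA 2 at 36 h) to 1.19 (without siRNA 1 at 36 h). For siRNA 2 against siRNA 1 none of 15 alternatives called a miRNA. miR-7-5p ran from -0.37 to 0.013 and miR-7-1-3p from -1.25 to 0.18 with 1 library left out, and miR-7-1-3p was 0.20 without both 36 h libraries. A lone library left at a time was assumed to vary like the others. Against untreated, the mean log2 ratio of miR-7-5p was -2.62 with all reads as the scale, where the median of all miRNAs was -1.19 (-0.09 with TMM), and both arms stayed below untreated in 6 of 6 libraries under TMM, DESeq2 size factors, total counts and all reads. With 1 library left out it ran from -1.65 to -1.35 (miR-7-1-3p -1.68 to -1.06, arm ratio shift -0.43 to 0.08). The cause of these differences was not tested. With the siRNA number as a replicate block, 0 miRNAs were called in the 3 comparisons of times, and miR-7-5p was at -1.10 for 48 h against 24 h (adjusted p = 0.202). The differences of siRNA 2 from siRNA 1 correlated between times at 0.0965, -0.25 and -0.16 over the tested miRNAs. Each difference rests on single libraries and the 36 h pair was split. These values therefore cannot decide whether libraries of 1 siRNA deviate together. Depth limits both opposite arms, with 14 to 139 reads of miR-7-1-3p and 0 to 2 of miR-7-2-3p in siRNA-treated libraries.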
